A study of Homo sapiens with 6 samples.

Results

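The genes described here are 10 syntaxins, STX3, STX4, STX5, STX6, STX7, STX8, STX10, STX12, STX16 and STX18, out of 60612 genes in the deposited table. They were taken by gene symbol, but the family was selected on a measured value, the increase of STX12 between these groups. The differences of the 10 genes between groups are therefore a description and carry no test of their own. The libraries came from A549, an epithelial cell line of human lung adenocarcinoma. Of the 6 libraries, 3 were from cells transfected with siRNA against GSE1 (siGSE1) and 3 from cells transfected with a negative control siRNA, and RNA of both groups was taken 48 hours after transfection. Both groups therefore share the transfection itself, and an siRNA lowers its target without removing it. Neither the siRNA sequences nor how many siRNAs were used is given in the sources used here, and the labels do not say whether the 3 replicates were separate cultures, so errors and p-values below cover the variation among the 6 libraries alone, and this may be technical.

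Syntaxins are membrane-anchored SNARE proteins. When a vesicle meets its target membrane, a syntaxin there zips into a bundle of helices with other Q-SNAREs and with an R-SNARE on the vesicle, which drives fusion. Each syntaxin has its own membranes: STX3 and STX4 serve fusion with the plasma membrane, STX5 serves transport from the endoplasmic reticulum (ER) and within the Golgi, STX18 serves return from the Golgi to the ER, STX6, STX10 and STX16 serve carriers between endosomes and the trans-Golgi network, STX7 and STX8 serve late endosomes, and STX12 serves early and recycling endosomes. In epithelial cells these steps carry secreted proteins outward and return receptors such as integrins to the surface.

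The start region of 3 of the genes is shown because STX12 and STX3 were the members past the threshold of the count test described below and STX7 is the endosomal relative of STX12 that was not. The sequences are the 250 bases before the first transcription start that RefSeq lists for each gene (GRCh38.p14), read 5′ to 3′ on the strand of the gene. Capitals mark GGGCGG or its complement CCGCCC (the GC box, bound by factors of the SP and KLF families) and TGACGTCA (the cyclic AMP response element, CRE).
STX12, plus strand, chr1:27772969-27773218: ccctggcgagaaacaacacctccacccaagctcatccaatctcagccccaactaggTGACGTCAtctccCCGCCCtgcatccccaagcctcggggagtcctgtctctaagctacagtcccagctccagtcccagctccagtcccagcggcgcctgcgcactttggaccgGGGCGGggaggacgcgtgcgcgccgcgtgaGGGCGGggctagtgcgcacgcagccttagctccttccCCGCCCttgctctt
STX3, plus strand, chr11:59755126-59755375: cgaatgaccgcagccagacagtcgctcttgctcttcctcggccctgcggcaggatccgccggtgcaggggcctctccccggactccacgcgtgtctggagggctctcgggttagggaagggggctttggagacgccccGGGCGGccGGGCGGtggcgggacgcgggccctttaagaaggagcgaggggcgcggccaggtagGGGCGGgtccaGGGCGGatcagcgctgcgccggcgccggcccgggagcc
STX7, minus strand, chr6:132513117-132513366: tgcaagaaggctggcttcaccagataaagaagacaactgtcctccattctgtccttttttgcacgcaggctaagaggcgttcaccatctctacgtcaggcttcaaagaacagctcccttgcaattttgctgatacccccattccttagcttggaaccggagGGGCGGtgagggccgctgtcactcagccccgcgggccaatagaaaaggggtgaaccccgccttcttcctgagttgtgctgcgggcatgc

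The STX12 window held 4 GC boxes and 1 CRE, the STX3 window held 4 GC boxes, and the STX7 window held 1 GC box. Of the members not shown, none past the threshold, STX5 held 3 GC boxes, STX4 and STX10 held 2 each and STX16 held 1. STX6, STX8 and STX18 held 0. The median number of GC boxes was 1.5 in the 10 members and 1.0 in tested genes. All 10 members matched an entry. STX4, STX7 and STX18 had 3 listed starts each, and the first in listing order was used. The start used for STX3 lies 41920 bases inside the span that the deposited table gives that gene. Those used for STX6, STX8 and STX18 also lie more than 250 bases inside, so their windows fall wholly within the deposited spans. A GC box lay in 7 of the 10 windows, against 66.5% of the windows of 11122 tested genes and 42.6% of all 35116 windows. The CRE, looked for after the STX12 sequence had been read, lay in the window of STX12 alone among the 10, against 2.80% of the windows of tested genes. An E-box, CACGTG, lay in 1 window, that of STX6, against 8.82% in tested genes. The sequence CCAAT lay in 4 of the 10, against 34.8%. Both strands were searched, and no marked match in the 3 sequences overlaps another. GC content of the 10 windows ran from 55.2% to 74.4% with a median of 66.0%, beside a median of 64.8% in tested genes. A match is a run of letters, not a measured binding site, and its relation to the differences between groups was not tested.

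The depth and the knockdown were as follows. Library totals ran from 14475992 to 20755506 counts. GSE1 itself had 3.84, 4.06 and 3.73 FPKM (reads normalised to the exonic length of a gene and to library depth) in siGSE1 libraries, against 7.37, 8.06 and 7.92 in control libraries, a log2 fold change of -1.03 (SE 0.06). Of 15937 genes tested with edgeR's quasi-likelihood test, 3167 passed an adjusted p of 0.05. Of those, siGSE1 cells had more of 1730 and less of 1437, whereas with libraries scaled to equal length-normalized sums 2544 were higher and 929 lower. Epithelial keratin genes and CDH1 were abundant, the summed level of 6 epithelial markers being 2100 to 2110 FPKM in siGSE1 libraries and 2200 to 2530 in control libraries, with KRT8 and KRT18 past the threshold and lower in siGSE1 cells and EPCAM under 1 FPKM in both groups. All 5 markers of alveolar type 2 cells were under 1 FPKM, including the surfactant genes. Summed levels of 7 leukocyte markers were 4.05 to 5.78 in siGSE1 and 4.37 to 7.01 in control libraries. Those of 7 fibroblast markers were 2.08 to 2.28 and 1.3 to 1.99, and those of 6 endothelial markers 0.07 to 0.25 and 0.14 to 0.20, in siGSE1 and control libraries. Control replicate 2 stood apart from the other control libraries, with a chi-square per degree of freedom of 10.2 and 9.04 against them where the other control pair had 4.57.

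All 10 syntaxins were measured and all passed the low-count filter. Between 133 and 1330 reads were counted per member and library, so counting alone adds an error of 8.67% at most, for STX12 in control replicate 3. Of the 10, 2 passed the threshold, STX12 and STX3, both higher in siGSE1 cells, beside 19.9% of all tested genes in either direction and 10.9% in that direction. None was past it and lower by edgeR, DESeq2 or limma, beside 9.02% of tested genes by edgeR. At an unadjusted edgeR p under 0.05, 5 members were higher, STX12 and STX3 among them, and 1, STX18, was lower. At that limit 2715 of 15937 tested genes were higher and 2478 lower. The count of 2 in 10 includes STX12, whose increase led to the choice of the family, and is close to the share found over all tested genes. At the stricter limits of the series text, an adjusted p of 0.001 and a ratio limit of 0.5 read as a log2 fold change, STX12 alone passed, beside 2.55% of tested genes. The median log2 fold change of the 10 was 0.09, against 0.00 over all tested genes. Of the 10 estimates 7 lay above 0, beside 8067 of 15937 tested genes. STX6 and STX8 above 0, and STX7 and STX16 below it, changed sign under some alternatives.

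**Figure D1:**
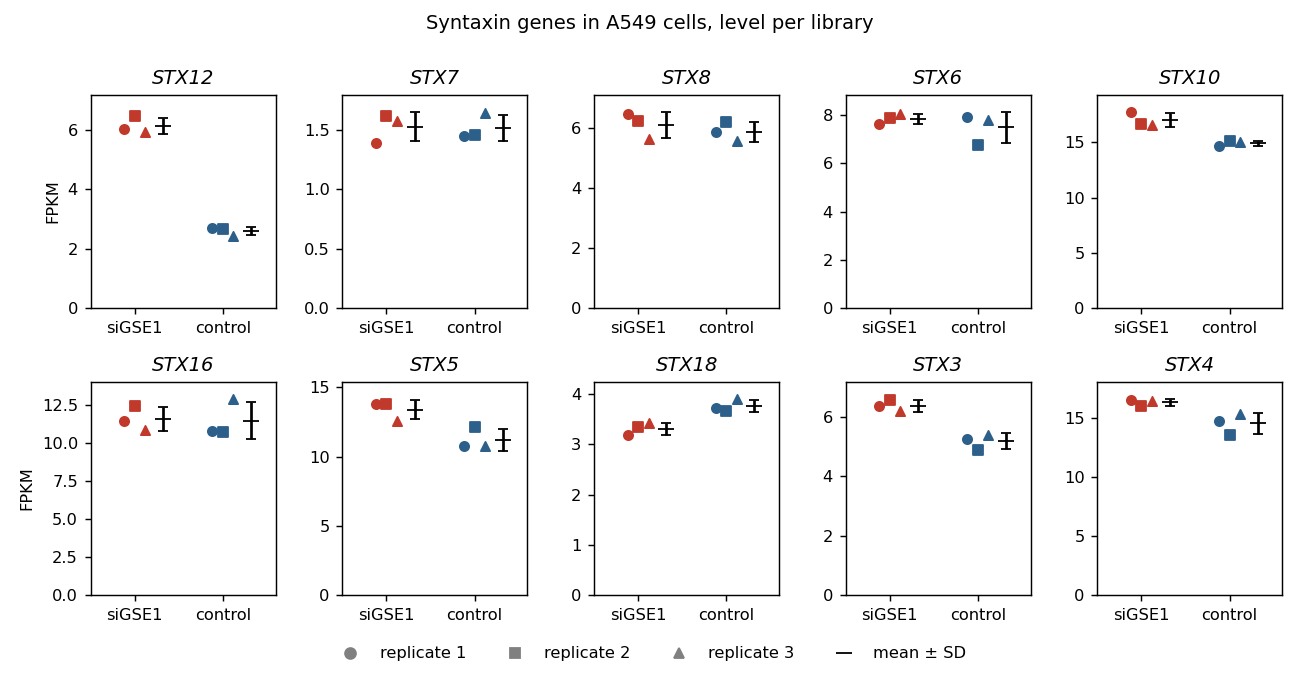
Level of each of the 10 syntaxin genes per library, in FPKM on a linear axis from 0 with a scale of its own in each panel, siGSE1 left of control; symbols are replicates 1 to 3 and the black mark is the mean with its SD. STX12 lies at 5.92 to 6.45 FPKM in siGSE1 libraries and at 2.42 to 2.69 in control libraries, while STX7, STX8, STX6 and STX16 overlap between groups.

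STX12 of early and recycling endosomes (ENSG00000117758, chromosome 1, 27773219 to 27824443, plus strand) had 6.01, 6.45 and 5.92 FPKM in siGSE1 libraries 1, 2 and 3, against 2.69, 2.66 and 2.42 in control libraries. Every siGSE1 library lay above every control library, and the gap between the groups was wider than the spread within either. The mean was 6.13 ± 0.28 FPKM in siGSE1 cells and 2.59 ± 0.15 in control cells (SD, n = 3 each). The difference was 2.31-fold, or 1.21 on the log2 scale (SE 0.10). In read counts these were 400, 474 and 448 in siGSE1 libraries and 210, 210 and 133 in control libraries. Its estimate ranked 91 from the top among 15937 tested genes, and the family was chosen with this increase known. Under the 15 other analyses tried on these same libraries, the log2 fold change ran from 0.99 to 1.27. Such bulk values cannot tell a change in the number of cells with the transcript from a change in transcript per cell.

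The remaining endosomal syntaxins did not follow STX12. STX7, a Q-SNARE of late endosomes and lysosomes (ENSG00000079950, chromosome 6, minus strand), had 1.39, 1.62 and 1.58 FPKM in siGSE1 libraries, against 1.45, 1.46 and 1.64 in control libraries. The groups overlapped, and the log2 fold change was -0.00 (SE 0.09), with a sign that turned under 7 of 15 alternatives, the scaling by library totals and by length among them. STX8, its late endosomal partner (ENSG00000170310, chromosome 17, minus strand), had 6.48, 6.23 and 5.64 FPKM in siGSE1 libraries, against 5.87, 6.21 and 5.56 in control libraries. Here too the groups overlapped, with a log2 fold change of 0.03 (SE 0.09). The ratio of STX12 to STX7 within a library was 4.32, 3.98 and 3.75 in siGSE1 libraries, against 1.86, 1.82 and 1.48 in control libraries. As a mean that is 4.02 ± 0.29 in siGSE1 cells and 1.72 ± 0.21 in control cells (SD, n = 3 each). Since both genes are read in the same library, this ratio does not depend on how libraries are scaled. With STX7 near level between the groups, the ratio restates the increase of STX12 and is no further evidence of it.

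**Figure D2:**
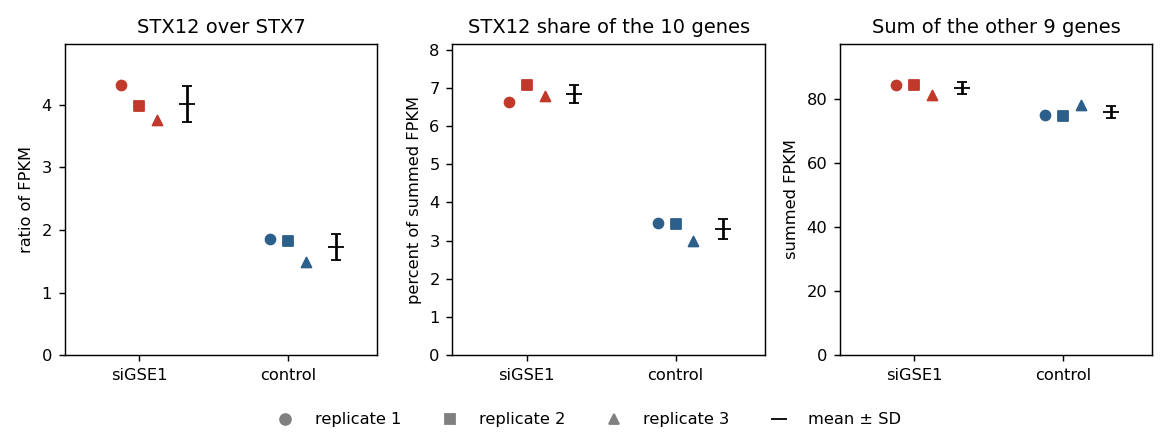
Left, STX12 FPKM divided by STX7 FPKM in each library; middle, STX12 as a percentage of the summed FPKM of the 10 genes; right, summed FPKM of the other 9 genes; siGSE1 left of control, symbols are replicates and black marks are mean and SD (n = 3). The ratio is 3.75 to 4.32 in siGSE1 libraries and 1.48 to 1.86 in control libraries, and the share 6.64% to 7.09% against 3.00% to 3.46%.

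STX12 made up 6.64%, 7.09% and 6.78% of the summed FPKM of the 10 genes in siGSE1 libraries, against 3.46%, 3.44% and 3.00% in control libraries. With the deposited exonic length it was the seventh most abundant of the 10 in siGSE1 cells and the ninth in control cells, and with the length of 1 transcript, described below, the ninth in both. The 9 others together came to 84.5, 84.5 and 81.4 FPKM in siGSE1 libraries, against 75.2, 74.6 and 78.2 in control libraries. That sum was higher in every siGSE1 library, by 1.10 times on the means. The share of counts from mitochondrial genes also separated the groups, at 6.70% to 6.95% in siGSE1 libraries and 7.38% to 7.48% in control libraries, and its part in these differences was not tested. FPKM as deposited are scaled to library totals, and with that scaling alone the log2 fold change of all tested genes had a median of 0.03.

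Among the syntaxins of the trans-Golgi network, STX6, which pairs with STX16 on carriers from endosomes (ENSG00000135823, chromosome 1, minus strand), had 7.62, 7.89 and 8.04 FPKM in siGSE1 libraries, against 7.91, 6.76 and 7.80 in control libraries. Control replicate 2 held the low value, and without it the log2 fold change of 0.05 (SE 0.07) turned to -0.03. STX16, the syntaxin of that complex with the Qa helix (ENSG00000124222, chromosome 20, plus strand), had 11.39, 12.38 and 10.82 FPKM in siGSE1 libraries, against 10.78, 10.71 and 12.84 in control libraries. The groups overlapped, and the log2 fold change of -0.01 (SE 0.07) changed sign with the scaling. A readthrough gene over STX16, STX16-NPEPL1, had at most 6 counts in a library. STX10, a close relative of STX6 (ENSG00000104915, chromosome 19, minus strand), had 17.73, 16.65 and 16.58 FPKM in siGSE1 libraries, against 14.65, 15.1 and 15 in control libraries. The groups did not overlap, as in 36.1% of all tested genes, and the log2 fold change was 0.16 (SE 0.07), past the threshold under 3 of 15 alternatives. The ratio of STX10 to STX6 was 2.33, 2.11 and 2.06 in siGSE1 libraries and 1.85, 2.23 and 1.92 in control libraries, so it overlapped.

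STX5, the Golgi syntaxin that receives vesicles from the ER (ENSG00000162236, chromosome 11, minus strand), had 13.81, 13.80 and 12.61 FPKM in siGSE1 libraries, against 10.75, 12.15 and 10.74 in control libraries. All siGSE1 values lay above all control values, with control replicate 2 closest to them. Its log2 fold change of 0.23 (SE 0.08) was not past the threshold, but was under 5 of 15 alternatives, among them the fit without control replicate 2 (0.29). STX18, the syntaxin of the ER that takes back Golgi carriers (ENSG00000168818, chromosome 4, minus strand), had 3.18, 3.34 and 3.42 FPKM in siGSE1 libraries, against 3.72, 3.67 and 3.90 in control libraries. It was the member with every siGSE1 value below every control value. The log2 fold change was -0.21 (SE 0.09) and lay below 0, without passing the threshold, in all 15 alternatives. Its head-to-head antisense gene STX18-AS1 had 28 to 50 counts in a library.

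STX3, which serves the apical surface of epithelial cells (ENSG00000166900, chromosome 11, plus strand), had 6.36, 6.58 and 6.20 FPKM in siGSE1 libraries, against 5.25, 4.89 and 5.41 in control libraries. The groups did not overlap, and the log2 fold change of 0.28 (SE 0.07) amounts to 1.21-fold. It was past the threshold under 14 of 15 alternatives and was not without siGSE1 replicate 2 (0.26). STX4, which serves the basolateral surface and many secretory routes (ENSG00000103496, chromosome 16, plus strand), had 16.55, 16.03 and 16.47 FPKM in siGSE1 libraries, against 14.77, 13.62 and 15.35 in control libraries. These groups did not overlap either, and the log2 fold change was 0.14 (SE 0.06), past the threshold with length-scaled totals alone (0.20). STX4 exceeded STX3 by 2.60, 2.44 and 2.66 times in siGSE1 libraries, against 2.81, 2.79 and 2.84 times in control libraries. That ratio was lower in every siGSE1 library than in every control library. Over the 10 genes the groups failed to overlap in 6, with 5 higher and 1 lower in siGSE1 cells, beside 36.1% of all tested genes in either direction, 21.2% higher and 14.9% lower.

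**Figure D3:**
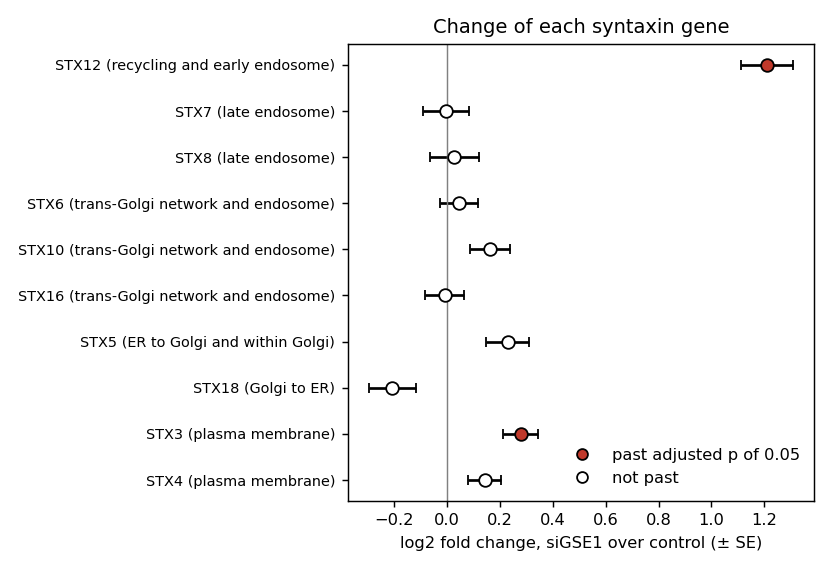
Log2 fold change of each syntaxin gene, siGSE1 over control, with its standard error from the edgeR fit over all genes (n = 3 libraries each); filled points passed an adjusted p of 0.05 over all genes. STX12 stands at 1.21 and the other 9 between -0.21 and 0.28.

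Levels of different genes are compared per length. In siGSE1 cells the order from the top was STX10 (17.0 FPKM), STX4 (16.4), STX5 (13.4), STX16 (11.5), STX6 (7.85), STX3 (6.38), STX12 (6.13), STX8 (6.12), STX18 (3.31) and STX7 (1.53). There the ranges of STX3, STX12 and STX8 overlapped each other in turn. In control cells it was STX10 (14.9), STX4 (14.6), STX16 (11.4), STX5 (11.2), STX6 (7.49), STX8 (5.88), STX3 (5.18), STX18 (3.76), STX12 (2.59) and STX7 (1.52). There the ranges of STX10 and STX4 overlapped, as did those of STX16 and STX5. STX10 had more reads per length than 83.0% of tested genes and STX7 more than 32.1%.

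This order rests on the gene length used. The deposited length joins the exons of all transcripts of a gene, from 1796 bases for STX10 to 16387 for STX7. Rescaled to the transcript with the longest coding sequence in GENCODE release 29, control levels became 39.9 for STX4, 23.6 for STX10, 16.3 for STX8, 14.1 for STX5, 11.8 for STX16, 11.5 for STX3, 10.0 for STX6, 9.41 for STX18, 3.20 for STX12 and 1.57 for STX7. STX4 and STX8 moved most, because the joined exons are 2.74 and 2.77 times as long as that transcript. With that length STX12 and STX7 were the lowest pair in both groups, at 7.56 and 1.59 in siGSE1 cells and 3.20 and 1.57 in control cells. STX18, which the deposited length puts below STX12 in siGSE1 cells, then lay above it there, at 8.29. Which transcripts A549 cells use was not measured, so neither order is preferred, and a fold change between groups does not depend on this choice. The coding sequences ran from 708 bases (STX8) to 1065 (STX5).

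**Figure D4:**
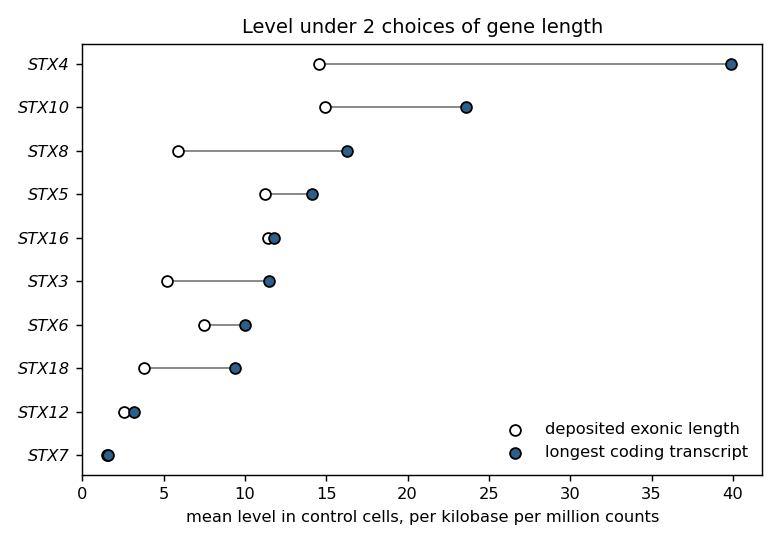
Mean level in control cells of each syntaxin gene, as counts per length and library total, computed with the deposited exonic length (open points, equal to FPKM) and with the length of the transcript with the longest coding sequence (filled points). STX4 moves to 39.9 and STX8 to 16.3, while STX7 and STX12 remain the lowest, at 1.57 and 3.20 after rescaling.

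The 10 genes lie on 8 chromosomes, with STX12 and STX6 on chromosome 1 and STX3 and STX5 on chromosome 11. In the ontology terms of the deposited table, 9 of the 10 carry SNAP receptor activity, which 0.132% of tested genes carry. The term SNARE complex is given to 8 and Golgi membrane to 6, STX12 among both. Retrograde transport from endosome to Golgi is given to 4, STX5, STX6, STX10 and STX16. 

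A syntaxin acts with other SNAREs, with SM proteins that guide assembly, with the NSF machinery that takes used complexes apart, and with tethers that hold the vesicle. Lists of 81 such genes in 10 groups were taken from textbook membership, with earlier results of these data known, and 77 of them were tested. Of these 8 rose, 6 fell and 63 did not pass the threshold, with a median log2 fold change of 0.01 beside 0.00 over all tested genes. These 14 of 77 stand beside 19.9% of all tested genes past the threshold. Adjusted p-values below are from edgeR over all tested genes, and most genes named were picked for passing the threshold.

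Partners of the endosomal and trans-Golgi syntaxins moved in both directions. VTI1A, the Qb-SNARE that joins STX6 and STX16 and is also found with STX12, rose to 4.17, 4.10 and 4.34 FPKM in siGSE1 libraries, against 3.38, 3.36 and 3.37 in control libraries. Its log2 fold change was 0.30 (SE 0.07, adjusted p = 0.00791). It was the sole gene of the 12 Qb, Qc and Qbc partners past the threshold, beside 19.9% of all tested genes. VTI1B, the Qb-SNARE of the STX7 and STX8 complex, had 15.4 FPKM in siGSE1 cells and 14.9 in control cells. The GARP tether docks endosome carriers where STX6 and STX16 act. Among 5 genes of GARP and the related EARP tether, VPS53 rose (0.23, SE 0.07, adjusted p = 0.0227) and VPS54 fell (-0.24, SE 0.06, adjusted p = 0.0161). That is 1 of 5 in each direction, beside 10.9% of all tested genes higher and 9.02% lower. The VPS53 call was lost under 6 of 15 alternatives and that of VPS54 under 4. Of 7 HOPS and CORVET genes, the tethers of late and early endosomes, 0 passed by edgeR, DESeq2 or limma and 0 had an unadjusted p under 0.05. At that unadjusted limit in edgeR, 2715 of 15937 tested genes were higher and 2478 lower. The most abundant of the 7, VPS16, had 21.2 FPKM in siGSE1 cells and 20.0 in control cells, and VPS18 had 13.0 and 13.2.

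Around the Golgi and the ER, YKT6, a lipid-anchored R-SNARE that works with STX5, rose to 42.9 ± 1.3 FPKM in siGSE1 cells, against 36.9 ± 1.07 in control cells (SD, n = 3 each). Its log2 fold change of 0.19 (SE 0.05, adjusted p = 0.0152) missed the threshold without siGSE1 replicate 3 (adjusted p = 0.0873). ZW10, a subunit of the NRZ tether that holds Golgi carriers at STX18 and also of the kinetochore, rose to 6.32, 6.42 and 7.11 FPKM in siGSE1 libraries, against 3.63, 4.44 and 3.70 in control libraries. The log2 fold change was 0.73 (SE 0.11, adjusted p = 2.19e-04), past the threshold in all 15 alternatives. It was the 1 gene of the 3 NRZ genes past the threshold, beside 19.9% of all tested genes. The other 2, named after their values were seen, had every siGSE1 value below every control value, as had 14.9% of all tested genes. RINT1 had 6.90, 7.45 and 7.00 FPKM in siGSE1 libraries, against 8.19, 8.86 and 7.62 in control libraries (log2 fold change -0.24, SE 0.08, adjusted p = 0.0534). It passed under 3 of 15 alternatives (RLE scaling, a robust prior and without control replicate 3), with adjusted p from 0.0225 to 0.165 over the 15. NBAS had 5.51, 5.52 and 5.43 FPKM in siGSE1 libraries, against 5.92, 5.54 and 5.64 in control libraries (log2 fold change -0.08, adjusted p = 0.412). Its groups were thus barely apart. Of the 8 COG genes, which tether carriers within the Golgi, 0 passed in the reported edgeR fit or by DESeq2, and 2 were higher by limma. With edgeR, 2 were higher under library totals only or length-scaled totals. A robust prior gave 1 higher, RLE scaling 1 lower, and leaving out control replicate 2 gave 1 higher. At an unadjusted edgeR p under 0.05, 2 were higher and 1 lower, beside 2715 higher and 2478 lower of 15937 tested genes. COG4 had 17.0 FPKM in siGSE1 and 14.9 in control cells (adjusted p = 0.0565, past the threshold under 6 of 15 alternatives). COG7, the second most abundant, had 7.38 and 7.23.

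At the plasma membrane, EXOC5 and EXOC7 of the exocyst, the tether of vesicles that fuse there, rose by 0.32 (SE 0.07, adjusted p = 0.00419) and 0.20 (SE 0.06, adjusted p = 0.0267) on the log2 scale. The other 7 exocyst genes did not pass, and these 2 of 9 stand beside 10.9% of all tested genes higher. The EXOC7 call was lost under 4 of 15 alternatives, without control replicate 2 among them. STX2, a plasma membrane syntaxin outside the 10, rose to 12.42, 10.78 and 11.59 FPKM in siGSE1 libraries, against 8.00, 9.69 and 9.57 in control libraries (log2 fold change 0.33, SE 0.08, adjusted p = 0.0104). That call was lost without siGSE1 replicate 1 and without control replicate 1. VAMP1, an R-SNARE of secretory vesicles, fell to 3.84, 4.39 and 4.04 FPKM in siGSE1 libraries, against 4.95, 6.49 and 6.08 in control libraries (log2 fold change -0.54, SE 0.11, adjusted p = 0.00257). The VAMP1 call held in all 15 alternatives.

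Regulators that bind syntaxins also moved both ways, with 1 higher and 3 lower of 6 tested, beside 10.9% and 9.02% of all tested genes. The list is short, and its count was not tested. Over all lists 8 rose and 6 fell of 77, close to the share of all tested genes. STXBP5, also called tomosyn, which occupies syntaxins and keeps R-SNAREs out, rose to 3.56, 3.35 and 3.38 FPKM in siGSE1 libraries, against 2.64, 1.92 and 2.10 in control libraries (log2 fold change 0.60, SE 0.10, adjusted p = 6.99e-04). The taxilins TXLNA and TXLNG, which bind free syntaxins, fell by 0.30 (SE 0.07, adjusted p = 0.00467) and 0.33 (SE 0.07, adjusted p = 0.00223) on the log2 scale. CPLX2, a complexin that grips assembled SNARE bundles at synapses, was the most abundant gene of the lists, at 255, 250 and 250 FPKM in siGSE1 libraries, against 269, 344 and 279 in control libraries. Its log2 fold change of -0.27 (SE 0.07, adjusted p = 0.0152) passed in 9 of 15 alternatives, and control replicate 2 held the highest value.

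**Figure D5:**
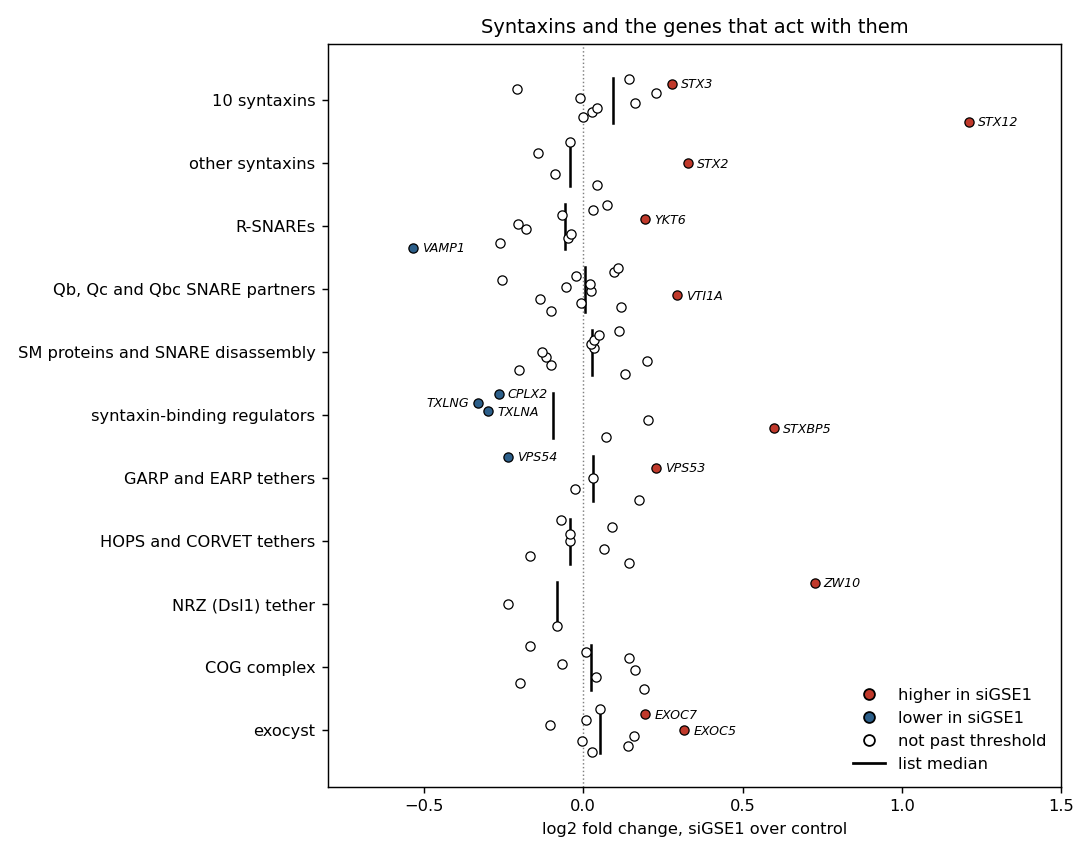
Log2 fold change, siGSE1 over control, of the tested genes shown among the 10 syntaxins and 10 lists of SNARE partners, 1 row per list; red points rose and blue points fell at an adjusted p of 0.05 over all genes (edgeR, n = 3 libraries each), open points did not pass, and black lines are list medians. STX12 at 1.21 lies farthest from 0, followed by ZW10 at 0.73 and STXBP5 at 0.60.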

How the data were processed

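RNA of 6 libraries (3 siGSE1, 3 control) was measured. Per the file headers, the deposited table holds whole-number read counts and FPKM, which equal the count divided by exonic length and library total (tolerance 0.0051) in 100% of cells. Per the submitters' processing notes, reads were handled with HISAT2, HTSeq, StringTie 1.3.3b and edgeR on hg38, while the series text names STAR and DESeq2. The sources used here give neither annotation release nor strand setting. From the deposited counts, edgeR 4.0.16 (R 4.3.3) fitted the group alone: filterByExpr (minimum count 10, total 15), TMM, quasi-likelihood test, Benjamini-Hochberg adjustment over 15937 genes, threshold 0.05. Standard errors are the log2 fold change over the square root of F. DESeq2 1.42.0, limma 3.58.1 on log2 FPKM, other scalings, no filter, a replicate block and each library left out were alternatives. The test was checked on simulated counts.

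The syntaxins and partner lists were chosen with earlier results of these data known. From each partner list the text names up to 4 genes past the threshold with the smallest adjusted p, or else the 2 most abundant. Results of some genes on these lists are not reported here. The promoter windows come from RefSeq (GRCh38.p14), and transcript lengths from GENCODE release 29.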

Additional observations from a re-analysis of the deposited data

How the results depend on the processing

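The number of syntaxins higher in siGSE1 cells, 2 of 10 as reported, became 5 with length-scaled totals and 4 with limma on log2(FPKM + 1) or log2(FPKM + 0.1). It was 1 at the stricter limits and ran from 1 to 3 with a library left out. Over all genes, 2544 of 15937 were higher with length-scaled totals, where the median log2 fold change was 0.067. With limma at the 2 pseudocounts, 1393 and 1391 of 14195 genes were higher. No syntaxin was lower under any alternative. Genes past the threshold numbered 1049 to 1914 higher and 814 to 1648 lower with a library left out, 258 and 148 at the stricter limits. Lower genes numbered 929 with length-scaled totals and 878 and 881 with limma at the 2 pseudocounts. SNARE partners past the threshold ran from 5 to 9 higher and 4 to 7 lower with a library left out, and were 2 and 0 at the stricter limits.

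Small estimates changed sign. STX7 was 0.023 with library totals only, 0.06 with length-scaled totals, 0.01 under limma at either pseudocount (0.007 and 0.011) and 0.006 with no low-count filter, and ran from -0.042 to 0.061 with a library left out. STX16 was 0.016 with library totals, 0.053 with length-scaled totals and 0.013 and 0.014 under limma, and ran from -0.06 to 0.06 with a library left out. With a library left out STX8 ran from -0.024 to 0.083, STX6 from -0.027 to 0.098 and COG7 from -0.066 to 0.048, and VPS18 was 0.021 with length-scaled totals. The cause of these moves was not tested.

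Replicates with the same number did not deviate together (correlations of 0.02, -0.02 and 0.00), so the numbers were not taken as pairs. With the replicate block 1715 genes were higher and 1382 lower, and 2 syntaxins, 8 partners higher and 6 partners lower were as reported. With 3 libraries a group and 133 to 210 reads of STX12 per control library, small differences could not be resolved.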
